A study of Homo sapiens with 2 samples.

Results

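The CpGs described here lie just beyond the 3' ends of genes, within 1000 bp of a gene end in the annotation of the deposited table, and are assigned to no promoter. Of 2773807 positions in the table, 29836 were annotated as downstream, 24612 of these carried no promoter, and 24207 of those were autosomal. At least 10 reads in both libraries were present at 22274 positions, 0.803% of the table. Whole methylated reads could not be recovered at 46 of them, which left 22228 CpGs. These CpGs fell into 2584 gene units as the authors named them, and 1697 units held 3 or more CpGs, 20947 in all, with a median of 7 and a maximum of 87. The other 887 units held fewer and entered only the values over CpGs. A unit may name several genes whose ends share the same CpGs, as 94 of the 1697 did.

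The DNA came from SH-SY5Y, an established human neuroblastoma cell line with properties of sympathetic neurons, exposed to Mdivi-1 or to the solvent DMSO as control. The compound Mdivi-1 is applied to cells to reduce the division of mitochondria. It was introduced as an inhibitor of DRP1, the GTPase that pinches mitochondria apart and is encoded by DNM1L. The dose and the length of exposure are not given in the sources used here. Each treatment had 1 library, 2 libraries in all, so that treatment and library cannot be told apart and no difference below has a replicate check. The targeted protein could not be checked in these data, and DNM1L had 0 downstream positions in the table. Mean coverage of the downstream CpGs was 48.3 reads in the Mdivi-1 library and 38.9 reads in the control library. Counting errors below cover the counting of reads only, and block errors come from the spread of differences between 1 kb blocks. Reads may share a PCR origin.

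The stretch after a gene end is where RNA polymerase II commonly goes on past the polyadenylation site before it is released from DNA. Genes of other kinds end differently: replication-dependent histone mRNAs end at a stem-loop without a poly(A) tail, and transfer RNA genes, transcribed by RNA polymerase III, end at a short run of T. Cytosine methylation at CpG is as a rule high in transcribed gene bodies, and low in CpG islands, the CpG-rich stretches that hold many promoters. CpG islands are flanked by shores and, farther out, by shelves, and the remaining sequence is called open sea.

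The microRNA genes whose CpGs are described first are identified here by their mature sequences, with the seed, bases 2 to 8, in capitals. The sequences are from RefSeq on GRCh38.p14, and the measured CpGs lie beyond the hairpin genes, outside these sequences.
hsa-miR-3615: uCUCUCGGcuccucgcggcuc
hsa-miR-3683: uGCGACAUuggaaguaguauca
The 84 CpGs after MIR3615, on chromosome 17 from 72744864 to 72745751 in hg19, all lay in a CpG island and averaged 2.38% methylation in the Mdivi-1 library and 2.25% in the control library. The 3 CpGs after MIR3683, on chromosome 7 from 7105917 to 7105956 in hg19, lay in open sea and averaged 91.4% in the Mdivi-1 library and 100% in the control library. The 2 genes were thus near opposite ends of the scale in both libraries. A difference of -8.64 points after MIR3683 came from 1 of its 3 CpGs.

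Downstream CpGs held both extremes of methylation. The mean level was 48.1% in the Mdivi-1 library and 47.6% in the control library. CpGs under 10% made up 34.2% in the Mdivi-1 library and 34.3% in the control, and CpGs above 90% made up 26.5% and 24.9%. The control library had fewer reads, and the part of depth in the share above 90% was not tested. The level was higher with greater distance from islands. Island CpGs averaged 40.5% in Mdivi-1 and 40.2% in control (6663 CpGs), shores 47.9% and 47.5% (6405 CpGs), shelves 52.3% and 51.8% (4470 CpGs), and open sea 55.1% and 54.4% (4690 CpGs). Even so, 27.5% of open sea CpGs in the Mdivi-1 library and 27.7% in the control library were under 10%.

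**Figure D1:**
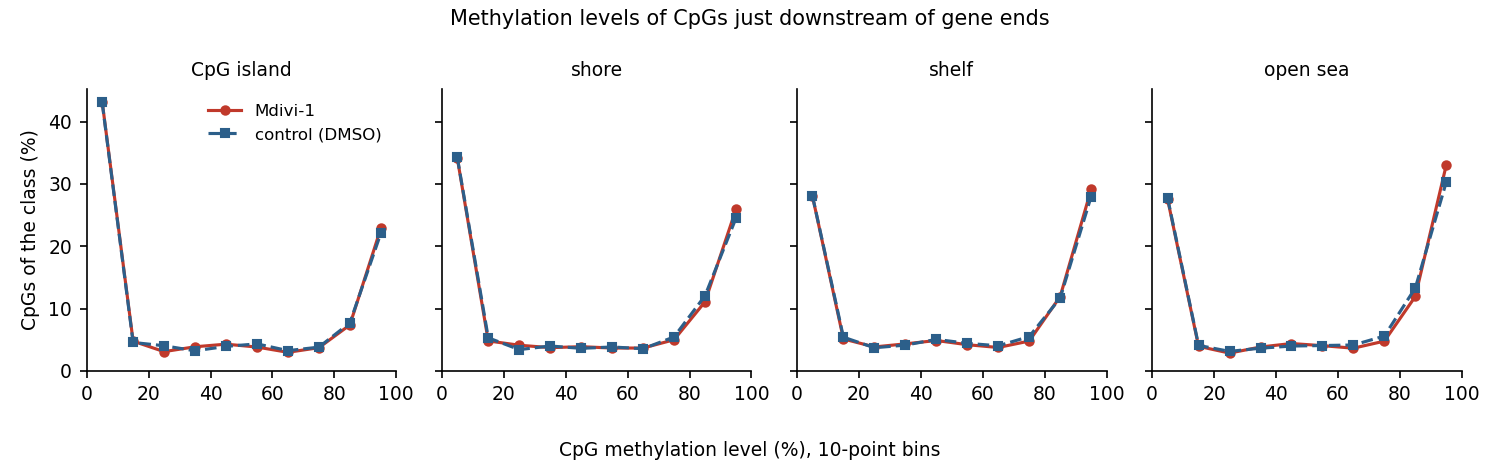
Share of downstream CpGs (percent, vertical axis) in each bin of methylation level (percent, horizontal axis) for the Mdivi-1 and control libraries, by CpG island class. All classes peak at the 2 ends, with 43.2% of island CpGs under 10% in Mdivi-1 and 43.1% in control, and 32.2% of open sea CpGs above 90% in Mdivi-1 and 29.5% in control.

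The sequence on either side of the gene end differed in level. CpGs of 3' UTRs, selected in the same way, averaged 68.9% in Mdivi-1 and 68.2% in control (54444 CpGs). Downstream minus 3' UTR was thus -20.9 points in Mdivi-1 and -20.6 points in control. Intergenic CpGs, which start where the downstream window stops, averaged 41.8% in Mdivi-1 and 41.3% in control (343613 CpGs), so downstream CpGs were 6.31 and 6.33 points higher. The 3 annotations hold different genes. Among 609 genes with 3 or more CpGs in both places, the median downstream level was 67.9% against a median 3' UTR level of 78.0% in the Mdivi-1 library, and 67.8% against 77.0% in the control library. Within single genes the gap was smaller than these medians imply. The median of each gene's own downstream level minus its 3' UTR level was -2.52 points in Mdivi-1 and -2.04 points in control. The downstream level was below the gene's own 3' UTR level in 364 of the 609 genes in Mdivi-1 and in 362 in control. For 64 genes, the control levels in the 2 places were more than 50 points apart.

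Among a gene's other parts, the 3' UTR had the level most correlated with the downstream level, and the promoter the least. Pearson's r across genes between the downstream and the 3' UTR level was 0.635 in Mdivi-1 and 0.633 in control, over 609 genes. It was 0.368 and 0.369 with exons (965 genes), 0.380 and 0.380 with introns (963 genes), and 0.0845 and 0.0892 with the promoter (1457 genes). These are descriptions across genes that share a library, and genes are not independent replicates. Promoters of the same genes had median levels of 21.1% in Mdivi-1 and 20.9% in control, against downstream medians of 57.1% and 57.2%. The median of each gene's own downstream level minus its promoter level was smaller, at 19.9 points in both libraries. The downstream level was below the promoter level in 479 of the 1457 genes in Mdivi-1 and in 473 in control. The difference between libraries, in contrast to the level, showed little such relation, with r of 0.0419 between downstream and 3' UTR differences.

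Distances from the gene end were available for 16943 CpGs (76.2%) at 1723 ends, from the gene distances that the table gives for intergenic CpGs beyond the same ends. In the first 100 bp the mean level was 52.3% in Mdivi-1 and 51.6% in control. It was 47.0% and 46.4% from 100 to 200 bp, and 46.0% and 45.4% from 200 to 300 bp. The level stayed close to this through the rest of the window, at 46.9% in Mdivi-1 and 46.6% in control from 900 to 1000 bp. Beyond the window, intergenic CpGs of the same ends averaged 46.9% in Mdivi-1 and 46.4% in control at 1 to 2 kb, 46.7% and 46.1% at 2 to 5 kb, and 39.9% and 39.4% at 10 to 50 kb. The mean level thus showed no step at 1000 bp, the outer limit of the downstream annotation.

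**Figure D2:**
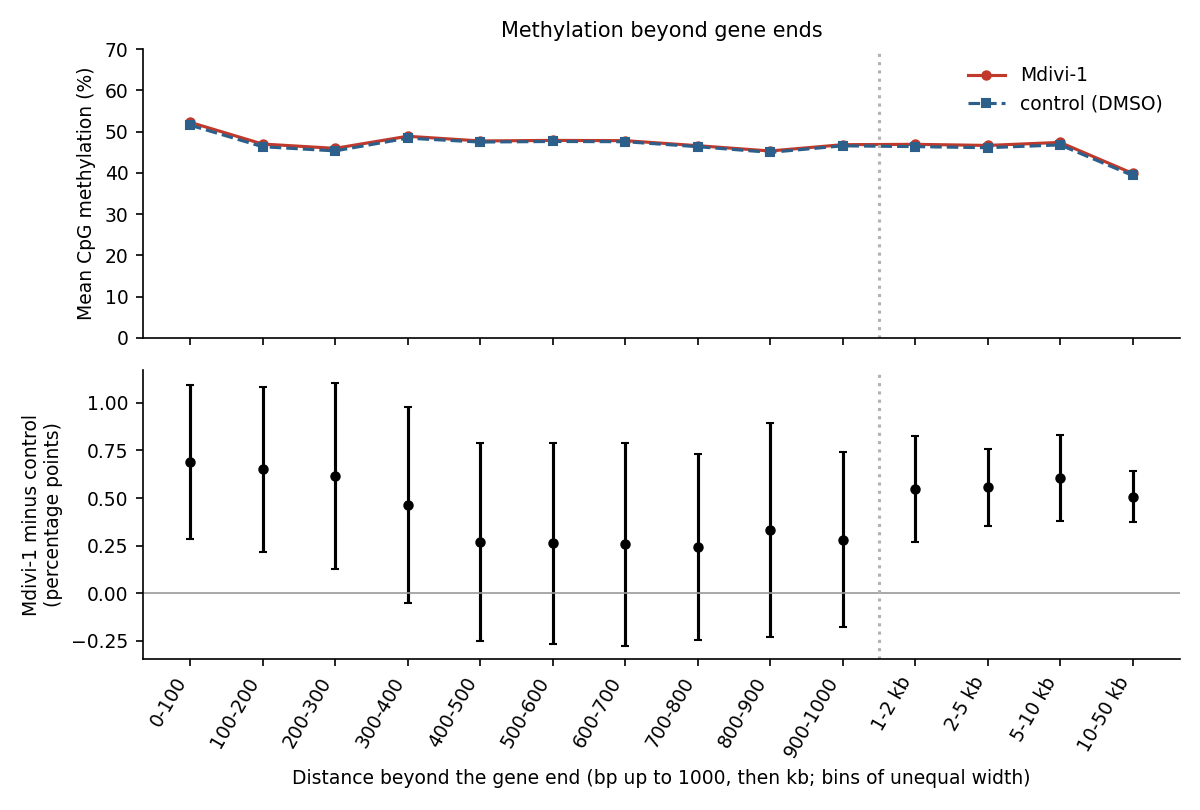
Mean methylation (percent, vertical axis) of CpGs by distance beyond the gene end (bp, horizontal axis) in the Mdivi-1 and control libraries (upper panel), and Mdivi-1 minus control in percentage points with 95% block intervals (lower panel), with a dotted line at 1000 bp. The first 100 bp are highest within the downstream window, at 52.3% in Mdivi-1 and 51.6% in control, and the level is 39.9% and 39.4% at 10 to 50 kb.

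Islands after gene ends differed by whether they also held promoter CpGs. In 59 islands that also held promoter CpGs, the 1672 downstream CpGs averaged 27.6% in Mdivi-1 and 27.4% in control. In 240 islands without promoter CpGs, the 4991 downstream CpGs averaged 44.8% in Mdivi-1 and 44.5% in control. Shores of the 2 kinds of island differed in the same direction, at 40.7% and 40.3% beside islands with promoter CpGs, and 50.8% and 50.4% beside the others. Shelves did not follow it, at 56.1% in Mdivi-1 and 55.3% in control against 50.8% and 50.4%. By size, islands with fewer than 30 CpGs had the highest downstream level, 54.2% in Mdivi-1 and 54.3% in control, and islands with 60 to 120 CpGs the lowest, 33.2% and 33.0%.

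The kind of gene that ended there went with the level. Gene types were taken from RefSeq by name, which matched 1674 of the 1697 units. After protein-coding genes the median gene level was 69.3% in Mdivi-1 and 68.9% in control (1160 genes), after pseudogenes 66.1% and 60.7% (82 genes), and after long noncoding RNA genes 35.5% and 37.5% (219 genes). After microRNA genes it was 22.8% in Mdivi-1 and 19.1% in control (44 genes). Transfer RNA genes had the lowest median of the types with more than 5 genes, 3.27% in Mdivi-1 and 2.93% in control (85 genes), and 50 of the 85 had a level under 10%. Island CpGs were present after 16.5% of these transfer RNA genes, against 17.5% of protein-coding genes. Transfer RNA genes sit in clusters, and neighbours can share a chromosomal region. On chromosome 17 all 9 were under 10%, on chromosome 1 it was 7 of 11, and on chromosome 6 it was 16 of 37, with medians on chromosome 6 of 26.4% in Mdivi-1 and 29.2% in control. Units naming 2 or more genes, such as those with converging ends, had a median of 84.0% in Mdivi-1 and 83.0% in control (94 units), against 56.5% and 56.6% for units naming 1 gene.

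**Figure D3:**
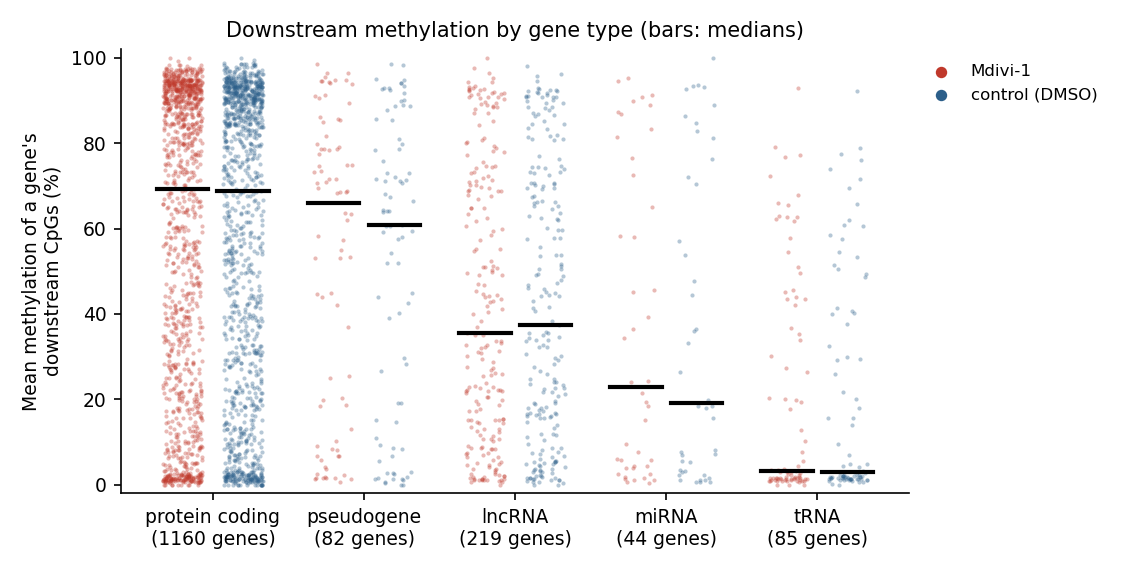
Downstream methylation of each gene (percent) by RefSeq gene type, with each point a gene of 3 or more CpGs, the Mdivi-1 library beside the control library, and the median marked. Medians are 69.3% in Mdivi-1 and 68.9% in control after protein-coding genes, and 3.27% and 2.93% after transfer RNA genes.

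Histone genes formed a second low group. Of 21 replication-dependent histone genes, which encode the core histones made in S phase, 16 were under 10% and 2 were above 90%, with a median of 1.75% in the Mdivi-1 library and 2.78% in the control library. Of the long runs of unmethylated CpGs, GATA3-AS1, the antisense transcript beside the transcription factor gene GATA3, had 79 CpGs at 1.02% in Mdivi-1 and 1.5% in control (chromosome 10, 8091418 to 8092412). SFN, which encodes the 14-3-3 sigma protein, had 76 shore CpGs at 2.36% in Mdivi-1 and 1.92% in control (chromosome 1, 27190974 to 27191931). Low levels were also found outside islands. RNF223, a RING finger gene, had 0 methylated reads in either library at its 6 shore CpGs. Coverage summed over the 6 CpGs was 149 in Mdivi-1 and 103 in control, at mean coverages of 24.8 and 17.2 reads. With CpGs taken as independent, counts of 0 allow levels of up to 2.01% and 2.91% (3 counts of the total). A read over several CpGs is counted at each, so the limits are higher where reads are shared. CD82, a tetraspanin, had 6 open sea CpGs at 0.926% in Mdivi-1 and 0% in control, and HSPB7, a small heat shock protein, 8 open sea CpGs at 1.04% and 0%. In TRM-CAT4-2, a methionine transfer RNA gene, 9 open sea CpGs were at 0.880% in Mdivi-1 and 0% in control. With independent CpGs, the 0% values in control allow up to 2.38% after CD82, 2.5% after HSPB7 and 2.19% after TRM-CAT4-2. These limits too are higher where reads are shared. The 13 CpGs after DYRK1B, a dual-specificity kinase, that lay outside islands averaged 0.492% in Mdivi-1 and 0.526% in control.

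Between genes the level varied more than within them. Gene identity accounted for 77.3% of the variance of CpG levels in Mdivi-1 and 77.4% in control. Still, many genes of intermediate mean held both methylated and unmethylated CpGs. Of 1178 genes with 5 or more CpGs, 456 had a mean of 20 to 80%. Among these the median SD between CpGs of a gene was 26.1 points, 158 genes had an SD of at least 30, and 41 had an SD under 15.

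Some genes had a large change in level within the window. FOXC1, a forkhead transcription factor gene, had 73 CpGs, all in an island (chromosome 6, 1614142 to 1615124). Its CpGs within 500 bp of the gene end averaged 2.89% in Mdivi-1 and 2.45% in control, and those farther out 58.5% and 57.3%. The farther mean mixes low and high CpGs, as the rise lay beyond 500 bp. FOXC1 was at 20% in Mdivi-1 and 5.88% in control at 672 bp, and at 70% and 58.3% at 725 bp. SCRIB, which encodes a cell polarity scaffold, went the same way, at 17.9% in Mdivi-1 and 16.8% in control within 500 bp, and 85.9% and 84.0% beyond. SNCB, which encodes the presynaptic protein beta-synuclein, had the opposite change in mean (chromosome 5, 176046086 to 176047065). Its 72 CpGs averaged 64.9% in Mdivi-1 and 64.8% in control within 500 bp, and 5.51% and 5.42% beyond. The nearer part was not evenly high. It was at 87.1% in Mdivi-1 and 94.7% in control at 18 bp, but at 12.1% and 7.41% at 85 bp. BHLHE23, a basic helix-loop-helix transcription factor gene, also had a higher mean near its end but no single step, with low and high CpGs interspersed, at 51.8% in Mdivi-1 and 50.1% in control against 18.0% and 17.3% farther out (87 CpGs). The Iroquois homeobox gene IRX6 had no such order, at 56.5% in Mdivi-1 and 57.5% in control within 500 bp and 54.1% and 53.5% beyond, although 9 of its 58 CpGs in Mdivi-1 and 10 in control were under 10%. The changes in mean across 500 bp after FOXC1, SCRIB and SNCB had the same direction and similar sizes in both libraries.

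**Figure D4:**
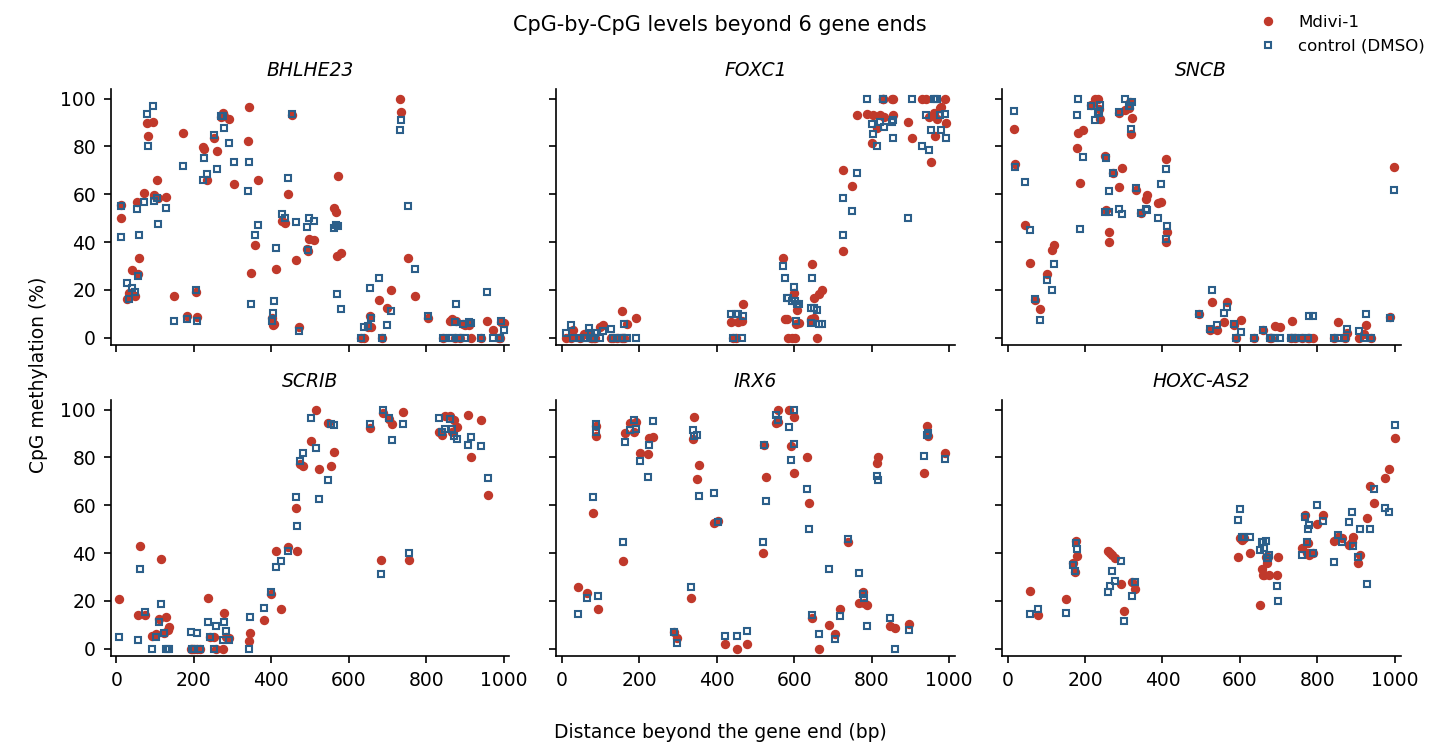
Methylation of single CpGs (percent, vertical axis) by distance beyond the gene end (bp, horizontal axis) after BHLHE23, FOXC1, SNCB, SCRIB, IRX6 and HOXC-AS2, with the Mdivi-1 library and the control library overlaid. FOXC1 and SCRIB are low near the gene end and high farther out, in both libraries. SNCB has a higher mean within 500 bp than beyond, with low CpGs close to the end, in both libraries.

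Other intermediate genes had fewer CpGs at the extremes. HOXC-AS2, an antisense transcript of the HOXC cluster, had 52 CpGs at 41.2% in Mdivi-1 and 41.5% in control, with an SD between CpGs of 13.6 points. It averaged 30.9% in Mdivi-1 and 27.3% in control within 500 bp, and 45.3% and 47.3% beyond. TBX3, a T-box transcription factor gene, had 31 CpGs at 77.1% in Mdivi-1 and 75.8% in control. TRV-AAC1-3, a valine transfer RNA gene on chromosome 5, had 50 CpGs at 43.5% in Mdivi-1 and 39.9% in control, well above the median of its class. By contrast FOXF1, a forkhead gene with 87 shelf CpGs (chromosome 16, 86549046 to 86550028), averaged 31.2% in Mdivi-1 and 30.9% in control with an SD between CpGs of 26.1 points.

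The comparison of the 2 libraries asked whether methylation after gene ends differed in cells exposed to Mdivi-1. The mean over all downstream CpGs was higher in Mdivi-1 by 0.446 points. Its counting error was 0.0521 points with CpGs taken as independent. The block error, from the spread of differences between 1 kb blocks, was 0.0684 points. The mean was higher on 20 of 22 autosomes, from -0.166 points on chromosome 18 to 1.28 points on chromosome 20. By class, the difference was 0.249 points in islands (block error 0.130), 0.402 in shores (0.113), 0.498 in shelves (0.167) and 0.739 in open sea (0.140). With reads pooled over CpGs, the shore difference was 0.175 points. By level, CpGs under 10% differed by 0.0727 points, those of 60 to 90% by 1.37 points, and those of 40 to 60% by -0.0777 points, the last smaller than its error of 0.293 points. The difference was 0.549 points within 500 bp of the end (block error 0.106) and 0.276 points from 500 to 1000 bp (0.123). Pooled reads gave 0.442 points within 500 bp and 0.0566 points from 500 to 1000 bp. Intergenic CpGs beyond the same ends differed by 0.549 points at 1000 to 2000 bp (block error 0.142). They differed by 0.557 points at 2000 to 5000 bp (0.103) and 0.605 points at 5000 to 10000 bp (0.116). The difference thus did not fall steadily with distance from the gene end. Counting and block errors hold no variation between cultures, so these values compare 2 libraries.

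The difference was smaller downstream than in 3' UTRs over all. The downstream difference minus the 3' UTR difference of 0.735 points was -0.289 points, with a 95% block interval of -0.448 to -0.130. Within island classes it was -0.148 points in islands (interval -0.500 to 0.205), -0.301 in shores (-0.587 to -0.0148), -0.298 in shelves (-0.684 to 0.0891) and -0.137 in open sea (-0.433 to 0.159). Its interval held 0 in all but shores. Against intergenic CpGs, whose difference was 0.472 points, it was -0.0257 points, with an interval of -0.165 to 0.114.

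Per gene, the 2 libraries were close. The median difference over 1697 genes was 0.334 points, with quartiles of -1.28 and 2.28 points, and 955 genes were higher, 736 lower and 6 equal in the Mdivi-1 library. The gene levels of the 2 libraries had a Pearson's r of 0.994 across genes. A difference within 2 points was found in 906 genes and one of 5 points or more in 262 genes. The median counting error of a gene's difference was 2.37 points when its CpGs were taken as independent. It was 7.48 points when all of them were taken to share the same reads and the gene's mean level. The second error can be too large where the CpGs of a gene differ in level.

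Genes were next counted by size of difference, as single libraries allow no test across genes. To be counted, a gene needed a mean difference of 10 points or more, shared in direction by 80% or more of its CpGs. Agreement in direction among the CpGs of a counted gene was thus set by the rule. With 3 or 4 CpGs, all had to agree. Of the 1697 genes, 23 (1.36%) were higher and 13 (0.766%) lower in Mdivi-1. Over all 48190 combinations of gene and annotation class, the shares were 0.739% higher, 0.396% lower and 1.14% either way. For 3' UTRs they were 1.61% and 0.716%, and for intergenic 1 kb blocks 1.45% and 0.984%. The downstream shares thus lay above the shares of all combinations and near those of the neighbouring classes. Intermediate level and few CpGs moved with the count: 26 of the 36 genes had a level of 20 to 80%, and 23 had 3 or 4 CpGs. At 20 to 80%, 4.16% of downstream genes passed (26 of 625), against 2.07% of all combinations. At 20 to 80% with 3 or 4 CpGs, 8.28% of downstream genes (14 of 169) passed, against 8.06% of all combinations. With 5 or more CpGs it was 2.63% (12 of 456), against 1.26%. None of the 36 had a 95% interval free of 0 with fully shared reads at the gene's mean level, and 23 had one with independent CpGs. No island CpG lay after 22 of the 23 higher genes and 12 of the 13 lower ones. With a minimum of 20 reads, 13 genes were higher and 5 lower, and with at least 5 CpGs per gene, 9 and 4.

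The 2 largest gains were at ADAMTS12 and MYC. ADAMTS12, a secreted metalloproteinase, had 4 open sea CpGs (chromosome 5, 33522699 to 33522930) at 45%, 95%, 71.1% and 66.7% in the Mdivi-1 library, against 40%, 71.4%, 30.8% and 38.1% in the control library. All 4 were higher in Mdivi-1, which the size rule requires of a gene with 4 CpGs. The mean was 69.4% in Mdivi-1 and 45.1% in control. The difference of 24.4 points had a counting error of 6.91 points with independent CpGs and of 14.2 points with shared reads. MYC, which encodes the proliferation factor c-Myc, had 4 CpGs (chromosome 8, 128755271 to 128755369) at 57.5%, 48.8%, 48.8% and 66.7% in Mdivi-1, against 41.2%, 46.2%, 31.0% and 35.5% in control. All 4 were higher here too, again as the rule requires. The mean difference at MYC was 17.02 points, with errors of 5.83 and 11.5 points. Its mean coverage was 38.3 reads in Mdivi-1 and 36.5 in control. At a minimum of 20 reads ADAMTS12 differed by 30.8 points, while MYC kept all its CpGs. At a minimum of 30 reads MYC differed by 12.3 points. Its CpG at 66.7% in Mdivi-1 and 35.5% in control, with 27 reads in Mdivi-1, was then left out.

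The other genes of largest gain rested on 3 to 6 CpGs each. MMP14, a membrane-bound matrix metalloproteinase, was at 54.2% in Mdivi-1 and 37.6% in control, and MYO18A, an unconventional myosin, at 47.2% and 32.5%. ST3GAL1, a sialyltransferase, was at 45.2% in Mdivi-1 and 32.8% in control, with 5 of 6 CpGs higher. CLN8, a membrane protein of the endoplasmic reticulum mutated in a neuronal ceroid lipofuscinosis, was at 59.4% in Mdivi-1 and 46.0% in control. The CpGs shared by ENGASE and RBFOX3, the second of which encodes the neuronal nuclear antigen NeuN, were at 86.7% in Mdivi-1 and 72.8% in control. EEF1A2, a translation elongation factor of neurons and muscle, was at 51.5% in Mdivi-1 and 39.7% in control, in an island. BICDL1 and RAB35, the second a GTPase of endosomal recycling, shared CpGs at 94.8% in Mdivi-1 and 79.3% in control, and the pseudogene DHX9P1 was at 74.9% and 60.5%. These differences lay between 11.8 and 16.7 points.

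Among the losses, SDK1 had the most CpGs. SDK1, a synaptic cell adhesion protein, had 12 CpGs (chromosome 7, 4308634 to 4309137), of which 10 were lower in Mdivi-1. The mean was 40.2% in Mdivi-1 and 54.7% in control, a difference of -14.4 points with an error of 4.15 points (independent CpGs) or 14.2 points (shared reads). The single CpGs ranged from 21.1% to 82.9% in Mdivi-1 and from 28.6% to 76.7% in control, so the ranges overlapped. LINC02332, a long noncoding RNA gene, had 10 CpGs (chromosome 14, 23024877 to 23025147) at 40.4% in Mdivi-1 and 57.6% in control, with 8 of 10 lower. Its 4 CpGs farthest along the chromosome were at 29.2%, 33.3%, 35.3% and 29.4% in Mdivi-1, against 63.6%, 60%, 65% and 57.9% in control. They lie 239, 265, 267 and 270 bp from the first CpG, so the same reads can cover several of them. With a minimum of 20 reads neither gene met the size rule, at -9.81 points for SDK1 and -11.0 points for LINC02332.

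MXRA8, a cell-surface protein of matrix remodelling, had 3 CpGs, the last 11 bp from the first, at 5.26%, 30% and 58.8% in Mdivi-1, against 25%, 58.3% and 75% in control, a mean difference of -21.4 points. LOC284009, an uncharacterised RNA gene, had 3 CpGs at 58.8%, 71.0% and 83.3% in Mdivi-1, against 94.7%, 90.9% and 89.7% in control, with a mean difference of -20.7 points. All 6 of these CpGs were lower in Mdivi-1, which the size rule requires of genes with 3 CpGs. CEBPA, which encodes a transcription factor of fat, liver and myeloid cells, was at 30.7% in Mdivi-1 and 42.8% in control, with 5 of 6 CpGs lower. GNG7, a G protein gamma subunit, was at 41.4% in Mdivi-1 and 54.4% in control. The CpGs shared by HCN2, a pacemaker channel, and POLRMT, the mitochondrial RNA polymerase, were at 73.3% in Mdivi-1 and 84.8% in control, with a mean coverage of 10 and 10.7 reads. ISY1-RAB43 and RAB43 were at 36.9% in Mdivi-1 and 55.7% in control, LINC01857 at 74.5% and 90.9%, and the doublecortin domain gene DCDC2C at 74.3% and 85.8%. With pooled reads CEBPA differed by -9.34 points and DCDC2C by -9.95 points, both short of the 10 points, and CEBPA by -8.38 points with thinned reads.

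**Figure D5:**
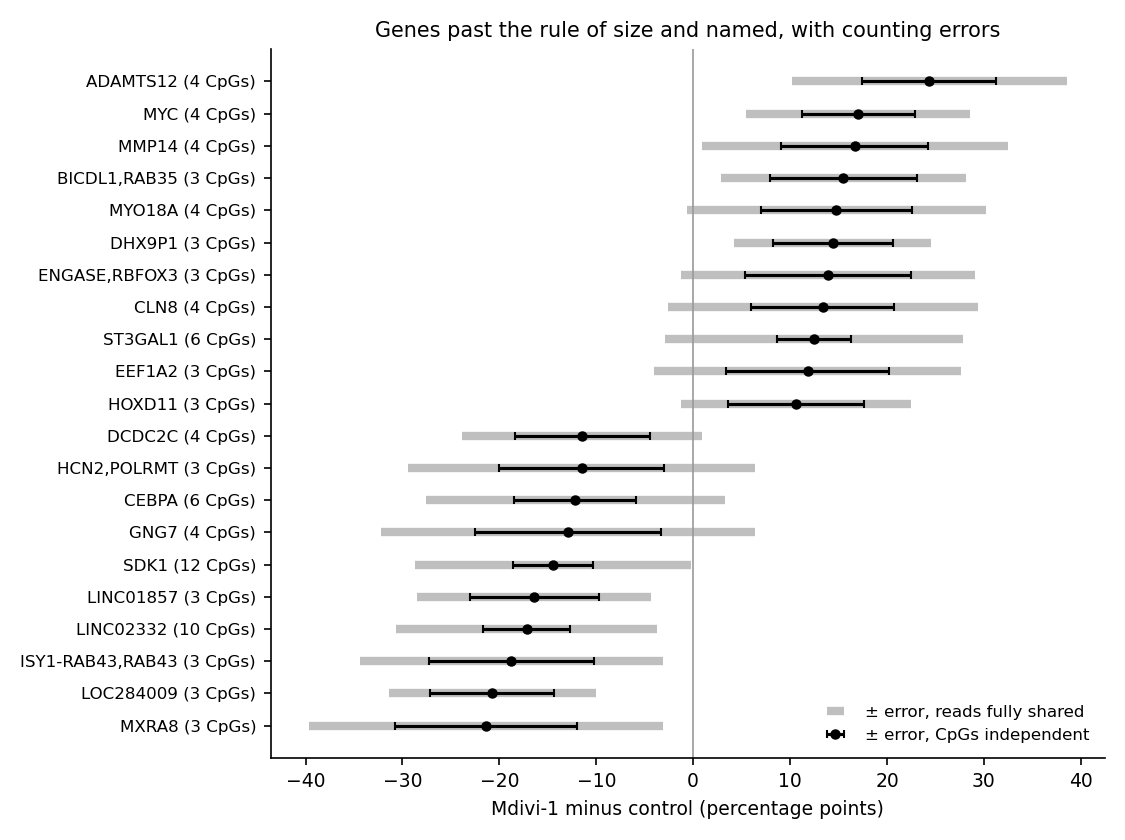
Mdivi-1 minus control in mean downstream methylation (percentage points, horizontal axis) for the 10 genes with the largest gains, the 10 with the largest losses, and HOXD11. Points are genes, thin bars the counting error with independent CpGs, and thick bars that with fully shared reads at the gene's mean level. Differences run from 24.4 points at ADAMTS12 to -21.4 points at MXRA8.

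The differences of these genes were not matched in size beside them. The genes were picked for a large downstream difference, so a smaller one in other CpGs was likely in advance. In 3' UTRs, 1.61% of 5029 genes were higher and 0.716% lower past the size rule. The counts below therefore cannot show whether a difference was confined to the downstream stretch. Of 11 genes past the size rule that had 3 or more 3' UTR CpGs, 6 differed in the same direction in the 3' UTR, by absolute values of 2.24 to 9.04 points over the 11, and none of the 6 reached 10 points. SDK1 had 37 3' UTR CpGs at 69.6% in Mdivi-1 and 65.8% in control, and MXRA8 had 3 at 53.6% and 62.6%. Of 12 genes with 3 or more CpGs 1 to 5 kb beyond the gene end, 5 differed in the same direction, and the largest absolute difference of the 12 was 6.09 points. Beyond CEBPA, 24 CpGs averaged 33.8% in Mdivi-1 and 37.2% in control.

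Genes with many CpGs differed little. Of 324 genes with 20 or more CpGs, 190 were higher and 134 lower, 246 differed by less than 2 points, and 9 by 5 points or more. The genes named here were chosen after their values were seen. EOMES, a T-box transcription factor gene, was at 23.4% in Mdivi-1 and 30.3% in control over 26 CpGs, of which 21 were lower (chromosome 3, 27756460 to 27756867). SP7, a bone transcription factor gene, had 19 of 25 CpGs lower, at 65.3% in Mdivi-1 and 71.3% in control. The ends of OPLAH and SMPD5 shared 46 CpGs at 30.3% in Mdivi-1 and 23.7% in control.

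Lists of genes by function were described by counts and medians, beside the median difference of 0.334 points over all genes. Lists of nuclear genes for mitochondrial proteins were small. Of 5 respiratory chain and ATP synthase genes, 4 were higher in Mdivi-1 and 1 lower, with a median difference of 3.64 points and 0 past the size rule. That median was 1.70 points at a minimum of 20 reads. ATP5F1D, the delta subunit of ATP synthase, was at 97.0% in Mdivi-1 and 90% in control, and NDUFS8, an iron-sulfur subunit of complex I, at 65.0% and 59.2%, on 3 CpGs each. With pooled reads the NDUFS8 difference was 13.1 points, against 5.89 points over CpGs. Mitochondrial ribosomal protein genes numbered 6, with 4 higher, 2 lower, a median difference of 0.803 points and a mean difference of 0.457 points. Among them MRPL23 was at 88.7% in Mdivi-1 and 84.4% in control, and MRPL54 at 93.9% and 97.8%. The MRPL23 difference of 4.24 points was 2.09 points with pooled reads. Of genes of mitochondrial dynamics and mitophagy, 1 had any downstream CpG and 0 had 3, and the same held for 3' end processing and termination factors.

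Cytosolic ribosomal protein genes numbered 7, with 5 higher, 2 lower and a median difference of 2.37 points, which was 1.41 points at a minimum of 20 reads. RPL12 was at 95.3% in Mdivi-1 and 89.3% in control. Of 12 zinc finger genes of the ZNF series, 10 were higher and 2 lower, with medians of 88.5% in Mdivi-1 and 86.4% in control. Their median difference was 1.54 points, and 0.911 points at a minimum of 20 reads. ZNF575 was at 97.0% in Mdivi-1 and 88.9% in control, and ZNF587B at 94.4% and 89.3%. In these lists 0 genes passed the size rule.

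Of 39 homeobox developmental genes, 24 were higher and 15 lower, with a median difference of 0.997 points. HOXD11, which patterns the distal limb, was the 1 member past the size rule, at 70.7% in Mdivi-1 and 60.1% in control on 3 CpGs. With reads thinned to equal coverage HOXD11 differed by 8.90 points, short of the rule. NKX6-1, a factor of ventral neural progenitors and pancreatic beta cells, had 9 island CpGs at 53.0% in Mdivi-1 and 43.6% in control, a difference of 9.43 points that was 14.3 points with pooled reads. Of 7 adrenergic neuroblastoma regulators and catecholamine genes, which mark the sympathetic origin of the line, 5 were higher and 2 lower, with a median difference of 1.60 points. The adrenergic median was 0.897 points at a minimum of 20 reads, and the mean difference was 3.43 points. INSM1, a neuroendocrine zinc finger factor, was at 82.4% in Mdivi-1 and 74.7% in control, and TBX2 at 72.6% and 65.5%. The INSM1 difference was 3.02 points at a minimum of 20 reads, 0.237 points at 30 reads and 3.89 points with pooled reads.

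Among noncoding genes, 57 microRNA units had 36 higher and 21 lower, with a median difference of 0.435 points and a mean of 0.144 points. Small nucleolar and nuclear RNA genes numbered 15, with 10 higher and 5 lower and a median of 0.615 points, which was 0.164 points at a minimum of 20 reads. Within them SNORA3C was at 32.2% in Mdivi-1 and 39.8% in control, and RNU2-64P at 85.6% and 94.2%. The SNORA3C difference was -7.59 points over CpGs and -12.2 points with pooled reads. Long noncoding RNA genes by symbol numbered 148, with 74 higher and 73 lower, a median of 0.0231 points, and 1 gene higher and 2 lower past the size rule. That median was -0.173 points at a minimum of 20 reads, and the mean difference was 0.0419 points. Histone genes had 12 higher and 9 lower, with a median difference of 0.217 points and a mean difference of -0.675 points, which differ in sign. The histone median was 0.110 points at a minimum of 20 reads. H2BC3 was at 34.1% in Mdivi-1 and 41.8% in control, and H4C3 at 1.54% and 6.54%.

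The remaining lists had at most 7 genes. Of 7 potassium, glutamate and GABA channel genes, 2 were higher and 5 lower, with a median of -0.691 points. Its members KCNE4, a potassium channel subunit, and GABRG3, a GABA-A receptor subunit, were at 67.5% and 78.7% in Mdivi-1, against 70.7% and 81.8% in control. The KCNE4 difference of -3.19 points was -0.583 points with reads thinned to equal coverage. Of 6 keratin and keratin-associated genes, 3 were higher and 2 lower, with a median of 1.80 points that was -1.17 points at a minimum of 20 reads. KRT87P was at 39.7% in Mdivi-1 and 33.3% in control, and KRTAP5-3 at 10.2% and 5.91%, a difference of 4.25 points that was -1.95 points at a minimum of 20 reads. Both olfactory receptor genes were lower, OR8S1 at 51.7% in Mdivi-1 and 54.3% in control (-2.61 points, and -4.89 points with pooled reads) and OR5B21 at 0% and 2.27%. After OR5B21 in Mdivi-1, 0 methylated counts in a coverage of 100 summed over 4 CpGs allow up to 3% with independent CpGs. The limit is higher where reads are shared. The CpGs after the gamma protocadherin cluster, 35 in 1 unit, were at 53.6% in Mdivi-1 and 52.1% in control, a difference that was -1.30 points with pooled reads. Of classic methylated tumour suppressors, 1 was measured. It was MGMT, a DNA repair gene, with 19 CpGs at 68.0% in Mdivi-1 and 63.9% in control, and 14 of the 19 higher.

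At single CpGs the reads of both libraries were set against each other with a two-sided Fisher exact test. With Benjamini-Hochberg adjustment over 2523690 CpGs, an adjusted p under 0.05 and a difference of at least 20 points, 0 of 22228 downstream CpGs were called, against 16 (0.000634%) of all CpGs, of which 10 (0.000396%) were higher and 6 (0.000238%) lower. An unadjusted p under 0.05 was found at 459 downstream CpGs (2.06%), against 2.02% of all CpGs. Of the 459, 299 were higher and 160 lower in Mdivi-1. The split by direction over all CpGs is not given here, so this split is not shown to be particular to downstream CpGs. The smallest p, 8.83e-07 with an adjusted p of 0.0928, was at 1 CpG after LINC00599 (chromosome 8, 9756652), methylated in 38 of 71 reads (53.5%) in Mdivi-1 and in 30 of 30 reads (100%) in control. Next was a CpG after the homeobox gene SIX2 (chromosome 2, 45231380), methylated in 15 of 19 reads (78.9%) in Mdivi-1 and in 3 of 21 reads (14.3%) in control, with an unadjusted p of 7.90e-05.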

How the data were processed

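Genomic DNA of SH-SY5Y cells underwent methyl capture with a SureSelectXT Methyl-Seq kit and sequencing on a NovaSeq instrument, per the labels' protocols. BSMAP and hg19 are named, with no BSMAP version, per the submitters' processing notes. For each position the authors deposited a methylated fraction per library, coverage, taken here as an estimated count because some values are not whole, and the difference of the fractions, a signed score that was not used.

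The control fractions matched whole reads for 33.3% of all positions. After the coverage had been scaled by 1.23, they did so for 100% of the positions with whole coverage. The factor equals the median coverage of 37 reads in Mdivi-1 over that of 30 reads in control. This scaling is read from the deposited values, within a tolerance of 1e-06. Whole methylated reads were recovered on that basis, and 10798 of 2773807 positions were left out, 10751 for fractional coverage. Deposited Mdivi-1 fractions needed no rescaling.

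Each library needed 10 or more reads at a CpG. Levels are means over CpGs, and the control level was subtracted from the Mdivi-1 level. Counting errors are binomial, for independent CpGs or for fully shared reads at the gene's mean level. Block errors and block intervals are from the spread of differences between 1 kb blocks. Named were the 10 genes of largest gain and of largest loss past the size rule, up to 2 members of each list, the 5 genes with most CpGs and the 5 least methylated outside islands. Some genes that these rules name are not reported here. The genes shown for steps and even levels, those with 20 or more CpGs, and the smallest Fisher p were chosen after their values were seen. CpGs, lists and rules were chosen with earlier results of these data known. RefSeq names came from GRCh38.p14, and region sequences were not used here. Alternatives were other coverage minimums, CpG numbers and sizes of difference, pooled or thinned reads, deposited fractions, removal of very deep CpGs, promoter CpGs kept, and comparison within island classes. Keeping positions of fractional coverage was added after seeing the data. The scripts were tested on simulated data. Software was SciPy 1.17.1 with Numba 0.67.0 and pandas 2.3.3, under Python 3.11.15, with NumPy 2.4.6, and Matplotlib 3.10.9 for figures.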

Additional observations from a re-analysis of the deposited data

How the results depend on the processing

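The mean differences by island class kept their sign under every alternative run. So did those of the 21 named genes past the size rule where measured, which was 6 genes at 20 reads and 1 at 30 reads; they were not computed with promoter CpGs kept. Genes past the size rule, higher and lower in Mdivi-1, numbered 13 and 5 at a minimum of 20 reads, 8 and 3 at 30 reads, 9 and 4 with at least 5 CpGs, 1 and 3 with at least 10 CpGs, 70 and 45 at 5 points, and 1 and 2 at 20 points. Of the 36 genes, 18 were measured at 20 reads and 12 of these passed there. With reads thinned to equal coverage 32 genes passed, 24 of them among the 36. Pooled reads gave 0.175 points in shores and 0.0910 points for downstream minus intergenic. Deposited fractions gave 0.546 points over all downstream CpGs and 0.364 points in islands, against 0.446 and 0.249 points with recovered reads. Within classes, downstream minus 3' UTR was -0.148 points in islands and -0.137 in open sea, and downstream minus intergenic -0.171 in islands, 0.0828 in shelves and 0.200 in open sea. The keratin median was -1.17 points at 20 reads, and the histone mean over genes -0.675 points. The cause was not tested. Of single genes, KRTAP5-3 differed by -1.95 points at 20 reads and the gamma protocadherin unit by -1.17 points at 30 reads. No paired analysis was possible because each group held 1 library, and for the same reason no library could be left out. The number of reads per CpG limits single genes: the median shared-read error of a gene was 7.48 points.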
